A study of Mus musculus with 20 samples.

Results

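The Hox genes described here are all genes whose only symbol in the array annotation is Hoxa, Hoxb, Hoxc or Hoxd followed by digits. Each was taken by its name and not by a measured value, but the set was chosen with earlier results of these data known. There were 36 of them among the 22180 genes tested, with 9 in the HoxA cluster on chromosome 6, 10 in HoxB on chromosome 11, 9 in HoxC on chromosome 15 and 8 in HoxD on chromosome 2. Hoxa11 was measured only by 2 probe sets shared with its antisense transcript Hoxa11os, and Hoxd4 only by 1 probe set shared with Hoxd3, so neither is a member. The probe set with the highest mean signal stood for each gene, and only Hoxb5 had 2 to choose from.

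Expression was measured on 20 Affymetrix arrays of RNA from C2C12, a cloned line of mouse myoblasts, which are muscle precursor cells that BMP ligands can turn from the muscle to the bone path. Wells in serum medium were left untreated (2 arrays), received methanol, taken here as the vehicle of the compounds (3 arrays), recombinant BMP4, a secreted ligand of the BMP receptors, at 10, 100 or 300 ng/ml (2 arrays per dose), or received compound 942, 178 or 181 at 6.25, 12.5 or 25 µM (1 array per compound and dose). The series presents its compounds as activators of BMP signalling, and the question was how their effects compare with that of BMP4. How long the wells were treated is not given here.

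All values are log2 signals as deposited, so a difference of 1 means a ratio of 2 on the linear scale. The labels name no separate cultures within a group, so p-values rest on a spread between arrays that may be technical. The 3 arrays of compound 942 and replicate 1 of 300 ng/ml BMP4 were labelled by a method called Affyexpress and the other 16 arrays by the standard method. The model held a term for that method, and with it the 300 ng/ml value rested on replicate 2 alone. Without that replicate the 300 ng/ml dose could not be fitted, so BMP4 means and slopes then covered the lower doses only. One BMP4 array stood apart in known BMP targets: replicate 2 of 10 ng/ml read 7.04 for Id1 and 8.82 for Id3, against 7.02 and 7.29, and 8.90 and 8.84, untreated, while replicate 1 read 9.04 and 10.08. Smad7 lay under both untreated arrays in replicate 2 and above them in replicate 1. Smad6 was above untreated in both (6.57 and 7.91 against 6.02 and 6.04). Without replicate 2 of 10 ng/ml, 5 in place of 4 Hox genes were called in the BMP4 mean and 0 in place of 1 on the slope over doses. Array medians lay between 4.93 and 5.05. The myoblast label fitted its markers, with 7 of 7 myoblast genes above background in the controls. Of other cell types, 1 of 4 endothelial (Cdh5), 2 of 3 epithelial (Cdh1, Cldn4) and 1 of 4 macrophage markers (Cd14) were above it. So were 3 of 4 neuron markers, Rbfox3, Syt1 and Stmn2, the last at 10.79. Pecam1, Kdr and Tek (endothelium), Epcam (epithelium), Ptprc, Csf1r and Adgre1 (macrophages) and Snap25 (neurons) were not. Of all genes 57.9% were above background, so passing it does not by itself tell cell types apart. Each array holds the RNA of whole wells, so that fewer cells of a type and less RNA per cell cannot be told apart.

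Hox genes encode homeodomain transcription factors that give cells of the trunk and limbs their identity along the body axis. Within a cluster the genes lie in the order in which they are used from head to tail, and genes at the same place in different clusters are paralogues with the same number. Low numbers pattern the hindbrain and neck, middle numbers the trunk, and high numbers the tail end and the far parts of the limbs. Cells in culture commonly keep part of the Hox pattern of the site they came from. Polycomb proteins hold unused Hox genes silent, trithorax proteins keep used ones active, and the PBX, MEIS and PKNOX homeodomain proteins bind DNA together with HOX proteins. BMP signals act with Hox genes in limb and tail outgrowth.

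In untreated and methanol-treated C2C12 cells, Hox signal above background lay mainly in the HoxA and HoxC clusters. All 9 HoxA and all 9 HoxC members were above background, against 4 of 10 HoxB and 2 of 8 HoxD members. The deposited values carry no detection call, so background was taken as the 95th percentile of the mean control level of 1088 olfactory receptor genes, which are used in the nose and not in muscle. That level was 4.93, and the median olfactory receptor stood at 2.99. In all, 24 of 36 members (66.7%) passed it, against 12851 of the 22180 genes (57.9%). By paralogue number, 6 of 10 members numbered 1 to 4 passed, 7 of 11 numbered 5 to 8, and 11 of 15 numbered 9 to 13.

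At the 99th percentile of the olfactory receptors, 5.84, 12 members remained, 4 of HoxA and 8 of HoxC. The 4 HoxA members were Hoxa6, Hoxa7, Hoxa9 and Hoxa10, which mark the trunk and the start of the limb series. Their control levels were 6.60 ± 0.13, 7.15 ± 0.07, 6.75 ± 0.15 and 6.28 ± 0.17 (SD, n = 5). In HoxC, all but Hoxc5 (5.64 ± 0.13, SD, n = 5) passed the stricter level. Hoxc6 stood at 8.30 ± 0.17, Hoxc10, a gene of the lumbar region and hindlimb, at 8.10 ± 0.13, and Hoxc13, a gene of the tail, nails and hair, at 6.58 ± 0.14 (SD, n = 5). Levels of different probe sets are set only against background here, since probe sets differ in brightness.

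Of HoxB, the members above the 95th percentile were Hoxb1 (5.11 ± 0.14, SD, n = 5), Hoxb4, Hoxb5 (5.60 ± 0.15) and Hoxb9, and of HoxD they were Hoxd10 (5.66 ± 0.08) and Hoxd12. Several of these lay close to the limit. Just inside it were Hoxb4 at 4.95 ± 0.14, Hoxd12 at 4.95 ± 0.23, Hoxb9 at 4.97 ± 0.17 and Hoxa3 at 5.04 ± 0.11, and the nearest member outside was Hoxb3 at 4.71 ± 0.17 (SD, n = 5). When each of the 5 control arrays was held to its own percentile, 18 members were above it in every array. Below background were, among others, Hoxb7 (3.78 ± 0.17), Hoxb13 (4.45 ± 0.13), Hoxd9 (4.49 ± 0.06) and Hoxd13 (4.38 ± 0.14, SD, n = 5). The spread of a member over the 5 controls ran from 0.0435 to 0.335 with a median SD of 0.142, against 0.147 over all genes.

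**Figure D1:**
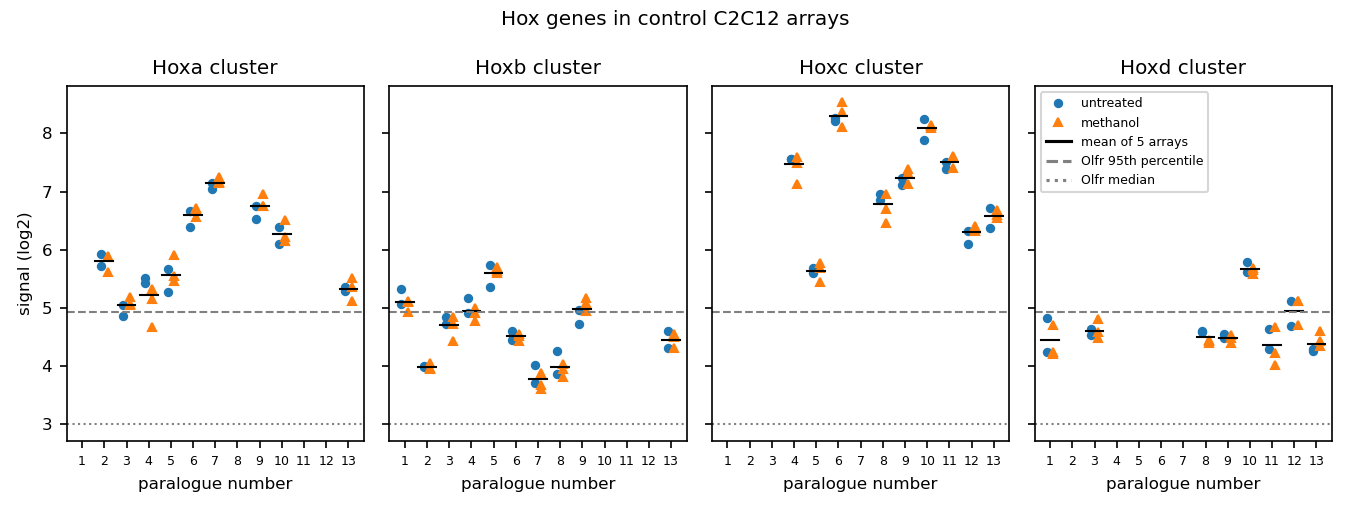
Level of each Hox gene in the 2 untreated (circles) and 3 methanol (triangles) arrays as log2 signal, by cluster and paralogue number, with bars at the mean of the 5 arrays. The dashed line is the 95th percentile of 1088 olfactory receptor genes (4.93) and the dotted line their median (2.99); all HoxA and HoxC means lie above the dashed line and most HoxB and HoxD means below it.

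BMP4 raised 4 Hox genes, all from the far end of the HoxA and HoxC clusters: Hoxc13, Hoxc12, Hoxa13 and Hoxc11. As a mean over the 3 doses, Hoxc13 was 2.68-fold higher than in untreated cells (95% interval 2.04 to 3.53), Hoxc12 1.69-fold (1.39 to 2.07), Hoxa13 1.52-fold (1.22 to 1.89) and Hoxc11 1.43-fold (1.17 to 1.74). They are 4 of the 8 HoxA and HoxC members numbered 9 to 13. No Hox gene fell at an adjusted p under 0.05 against untreated. A share of 8.81% of all 22180 genes was called in this comparison, 4.20% in the upward direction, against 4 of the 36 members. Leaving out replicate 2 of 300 ng/ml BMP4 also took that dose out of the mean. The count of 4 became 2 when untreated replicate 1 was left out, 1 (Hoxc13) for untreated replicate 2, 2 for replicate 2 of 300 ng/ml BMP4, and 7 with the methanol arrays as the control.

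Hoxc13 (probe set 17315485) encodes a factor needed for hair and nail formation. Its level was 6.37 and 6.72 in the untreated arrays and 6.60, 6.55 and 6.68 in the methanol arrays. With BMP4 it was 7.45 and 6.90 at 10 ng/ml, 8.51 and 7.96 at 100 ng/ml, and 8.59 and 8.49 at 300 ng/ml. Every BMP4 array lay above all 5 controls, and the 4 arrays at the upper doses lay above both arrays at the lowest dose. The mean difference from untreated was 1.42 on the log2 scale (SE 0.18, 95% interval 1.03 to 1.82, limma adjusted p = 4.02e-04).

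Hoxc12 (probe set 17315490) lies next to Hoxc13. It measured 6.32 and 6.10 untreated, 6.41, 6.36 and 6.31 with methanol, 6.70 and 6.44 at 10 ng/ml BMP4, 7.30 and 7.03 at 100 ng/ml, and 7.32 and 7.16 at 300 ng/ml. All 6 BMP4 arrays were above all 5 controls, although the lower array at 10 ng/ml exceeded the highest control only narrowly. The mean difference was 0.76 (SE 0.13, 95% interval 0.47 to 1.05, adjusted p = 0.00289). Without untreated replicate 2 the adjusted p was 0.0537.

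Hoxc11 (probe set 17315495) acts in the hindlimb and sacral region. It measured 7.39 and 7.50 untreated, 7.41, 7.62 and 7.59 with methanol, 8.02 and 7.57 at 10 ng/ml, 7.89 and 7.93 at 100 ng/ml, and 8.08 and 8.18 at 300 ng/ml. All BMP4 arrays were above both untreated arrays, but the second array at 10 ng/ml lay under the highest methanol array. A mean without replicate 2 of 300 ng/ml BMP4 covers the lower doses only. The mean difference was 0.51 (SE 0.13, 95% interval 0.23 to 0.80, adjusted p = 0.0286). This call depended on single arrays and on the scaling: it was lost with arrays centred on their medians (adjusted p = 0.0649), and leaving out untreated replicate 1 gave an adjusted p of 0.223, untreated replicate 2 gave 0.0979, methanol replicate 2 gave 0.0517 and replicate 2 of 300 ng/ml BMP4 gave 0.113.

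Hoxa13 (probe set 17466894) is needed for the hand and foot plate and the genital tubercle. Its level was 5.37 and 5.29 untreated, 5.52, 5.35 and 5.11 with methanol, 5.77 and 5.70 at 10 ng/ml, 6.05 and 5.77 at 100 ng/ml, and 6.04 and 6.15 at 300 ng/ml. The BMP4 arrays did not overlap the controls. The control mean of 5.33 ± 0.15 (SD, n = 5) lay above the 95th percentile of the olfactory receptors (4.93) but under the 99th (5.84). The lower BMP4 arrays were under 5.84 as well. Here too, a mean without replicate 2 of 300 ng/ml BMP4 covers the lower doses only. The mean difference was 0.60 (SE 0.14, 95% interval 0.29 to 0.92, adjusted p = 0.0211), and the adjusted p rose to 0.111 when untreated replicate 1 was left out, to 0.142 for untreated replicate 2 and to 0.0789 for replicate 2 of 300 ng/ml BMP4.

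**Figure D2:**
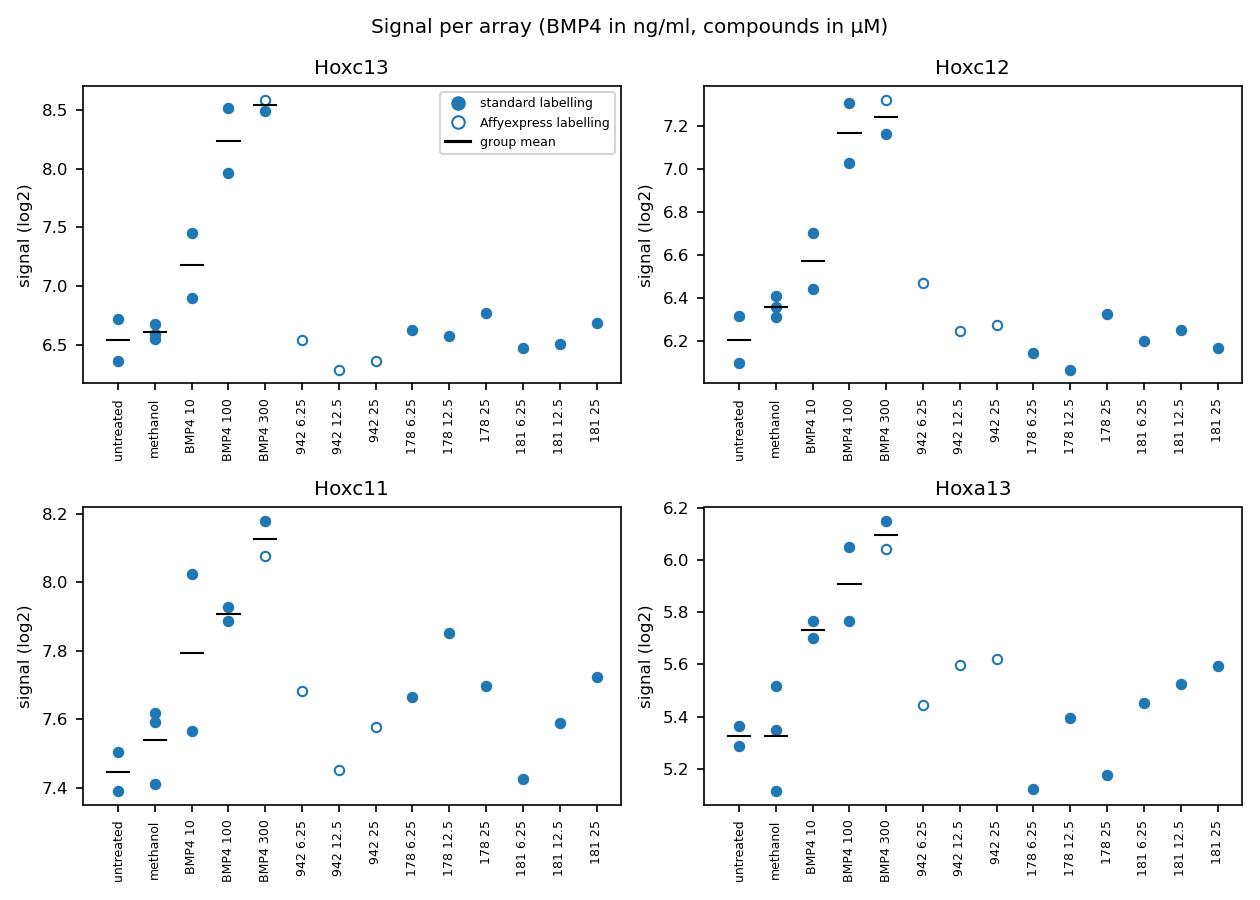
Level of Hoxc13, Hoxc12, Hoxc11 and Hoxa13 in each of the 20 arrays as log2 signal, by treatment and dose, with open circles for arrays labelled by Affyexpress. Hoxc13 runs from 6.37 to 6.72 in the controls and from 6.90 to 8.59 with BMP4, and the arrays of the 3 compounds stay at 6.29 to 6.77.

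Hoxa13 is the only one of these 4 genes with an upstream sequence in the RefSeq promoter table used here, and it is printed to show the DNA before a Hox gene that BMP4 raised. The window holds the 250 bases before the start site, chr6:52260881-52261130 on the minus strand of GRCm38.p6, written 5′ to 3′ along the gene, with GC boxes (GGGCGG or its complement CCGCCC) and the CCAAT box in capitals.
Hoxa13 upstream window: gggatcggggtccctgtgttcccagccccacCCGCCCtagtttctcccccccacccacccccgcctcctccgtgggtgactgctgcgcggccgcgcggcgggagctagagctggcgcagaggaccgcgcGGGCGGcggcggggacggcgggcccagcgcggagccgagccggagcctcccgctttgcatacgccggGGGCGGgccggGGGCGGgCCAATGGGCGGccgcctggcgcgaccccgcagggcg
The window is 80.0% G and C, against a median of 52.4% over 32851 such windows. GC boxes begin 219, 121, 54, 43 and 31 bases before the start site, and a CCAAT box begins 36 bases before it, directly beside the nearest GC box.

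Letters known from SMAD proteins, the factors that carry BMP signals to DNA, were searched on both strands of the same windows. The Hoxa13 window held none of GGCGCC, the SMAD palindrome GTCTAGAC or its core GTCT. Over all windows, GGCGCC was present in 9.59%, GTCTAGAC in 0.167%, GTCT (which every palindrome also holds) in 82.9%, the GC box in 32.7% and CCAAT in 33.8%. Of the 22 windows of 20 Hox genes, 5 held GGCGCC, 0 the palindrome, 16 GTCT, 10 the GC box and 13 CCAAT. A match in these letters describes the sequence and shows no binding, and a missing match speaks only of this window.

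Across the rest of HoxC, the differences from untreated were smaller but ran the same way. All 9 HoxC members had a mean BMP4 difference above 0, from 0.19 for Hoxc6 to 1.42 for Hoxc13, with a median of 0.37. Over all genes 47.0% were above 0 and the median was -0.01. The 6 HoxC members numbered 4 to 10 had a median of 0.23, and none of them was called. All 9 stayed above 0 in each of the 31 alternative analyses. By analysis, 6 to 8 members of HoxA, 2 to 6 of HoxB and 0 to 4 of HoxD were above 0. The 2 of HoxB came with dim genes left out, where only 3 HoxB and 2 HoxD members were tested. Neighbouring genes share an array and the same 2 untreated arrays, so their differences are not independent of each other.

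Hoxc4, at the other end of the cluster, had 7.57 and 7.56 untreated, 7.13, 7.50 and 7.59 with methanol, 7.79 and 7.64 at 10 ng/ml, 7.94 and 7.87 at 100 ng/ml, and 7.83 and 8.21 at 300 ng/ml. Its BMP4 arrays did not overlap the controls, and the mean difference of 0.38 (95% interval 0.10 to 0.67) had an adjusted p of 0.101. Hoxc8, a gene of the lower chest, had 6.95 and 6.86 untreated, 6.46, 6.95 and 6.70 with methanol, 7.11 and 6.84 at 10 ng/ml, 7.24 and 7.35 at 100 ng/ml, and 7.11 and 7.54 at 300 ng/ml. Its groups overlapped at the lowest dose, and the difference was 0.37 (95% interval 0.05 to 0.68, adjusted p = 0.162). Hoxc10 went from 7.88 and 8.25 untreated and 8.09 to 8.15 with methanol to 8.20 to 8.43 with BMP4, a difference of 0.24 (adjusted p = 0.30). With all 5 control arrays pooled, Hoxc4 and Hoxc8 were called higher and Hoxa7 was called lower.

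HoxA was mixed, with 7 of 9 members above 0, a median difference of 0.24 and a range from -0.26 for Hoxa7 to 0.60 for Hoxa13. Hoxa9, a posterior gene also used in blood stem cells, had 6.75 and 6.53 untreated, 6.96, 6.75 and 6.75 with methanol, 7.26 and 6.80 at 10 ng/ml, 7.03 and 7.18 at 100 ng/ml, and 7.17 and 6.94 at 300 ng/ml. All 6 BMP4 arrays lay above both untreated arrays and some under the highest methanol array. The difference was 0.38 (95% interval 0.07 to 0.70, adjusted p = 0.142).

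Hoxa10 had 6.39 and 6.09 untreated, 6.15 to 6.52 with methanol and 6.22 to 6.84 with BMP4 (difference 0.27, adjusted p = 0.464), and Hoxa6 had 6.66 and 6.39, 6.56 to 6.71 and 6.60 to 6.93 (0.29, adjusted p = 0.235). For both genes the BMP4 arrays overlapped the controls. Hoxa7 ran the other way, with 7.04 and 7.14 untreated, 7.15 to 7.25 with methanol and 6.69 to 7.08 with BMP4 (difference -0.26, adjusted p = 0.25). The neighbours Hoxa6 and Hoxa7 thus had differences of opposite sign, neither of them called against untreated.

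In HoxB and HoxD no member was called, and the smallest adjusted p was 0.251 in HoxB (Hoxb4) and 0.619 in HoxD. The median difference was -0.09 in HoxB, with 4 of 10 members above 0 and a range from -0.31 to 0.17 (Hoxb5). The second Hoxb5 probe set, not tested by itself, went the other way, with means of 5.77 untreated and 5.54 with BMP4. In HoxD the median was -0.05, with 2 of 8 above 0 and a range from -0.22 (Hoxd1) to 0.03 (Hoxd12). Hoxb4, a gene of the neck that is used to expand blood stem cells, had 5.16 and 4.90 untreated, 4.91, 4.77 and 4.99 with methanol, 4.82 and 4.71 at 10 ng/ml, 4.59 and 4.85 at 100 ng/ml, and 5.00 and 4.68 at 300 ng/ml, and the groups overlapped. The outermost bounds of the 95% intervals in both clusters were -0.65 and 0.50, so larger mean changes lie outside each of these intervals. The 12 members not above background in the controls ran from -0.24 (Hoxb7) to 0.04 (Hoxb3), and BMP4 brought none of them to a call.

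By paralogue number, 0 of 10 members numbered 1 to 4 were called and 5 were above 0, 0 of 11 numbered 5 to 8 were called and 6 were above 0, and 4 of 15 numbered 9 to 13 were called and 11 were above 0. Unadjusted p was under 0.05 for 10 of the 36 members, against 19.9% of all genes. Counted without a model, 6 members (Hoxa9, Hoxa13, Hoxc4, Hoxc11, Hoxc12 and Hoxc13) had all 6 BMP4 arrays above both untreated arrays, as did 7.32% of all genes. Only Hoxb6 had all 6 below them (4.14 to 4.43 against 4.45 and 4.60, all under background), against 8.95% of all genes. Above all 5 controls were 4 members, Hoxa13, Hoxc4, Hoxc12 and Hoxc13 (3.19% of all genes), and 0 were below all 5 (4.59% of all genes).

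**Figure D3:**
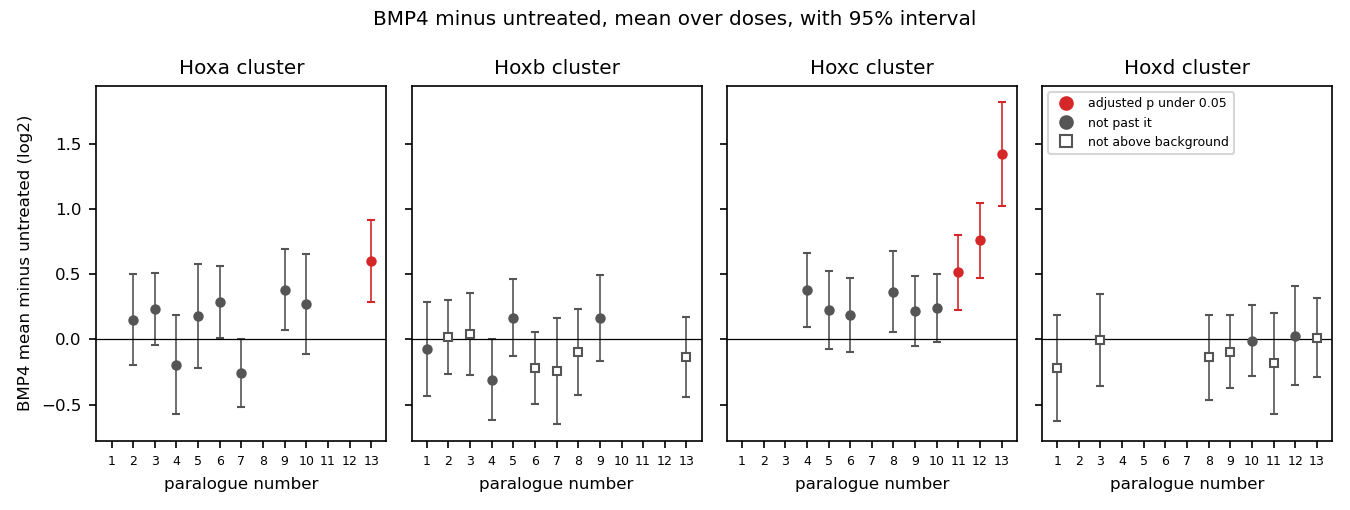
Difference of the BMP4 mean over 3 doses from untreated (log2) with 95% interval for each Hox gene, by cluster and paralogue number. Red marks adjusted p under 0.05 and open squares genes not above background in the controls; the 4 called genes are Hoxa13, Hoxc11, Hoxc12 and Hoxc13, and all 9 HoxC genes lie above 0.

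Hoxc13 rose along the BMP4 dose, and the other genes had smaller slopes that were not called. The 3 doses and their mean share the same 2 untreated arrays and are given side by side. At 10 ng/ml 0 members were called by limma, and 1.10% of all genes were. At an unadjusted p under 0.05 were 5 members, against 10.0% of all genes. Hoxc13 differed there by 0.63 (95% interval 0.16 to 1.10, adjusted p = 0.28), Hoxa13 by 0.41 (adjusted p = 0.432) and Hoxc11 by 0.35 (adjusted p = 0.467). At 100 ng/ml, where 9.15% of all genes were called, Hoxc13 (1.69, SE 0.21, adjusted p = 3.77e-04) and Hoxc12 (0.96, SE 0.15, adjusted p = 0.00194) rose, while Hoxa13 (0.58, adjusted p = 0.0548) and Hoxc11 (0.46, adjusted p = 0.0921) missed the threshold.

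At 300 ng/ml, where 7.98% of all genes were called, the 4 genes all rose. The differences were 1.95 for Hoxc13 (SE 0.26, adjusted p = 6.49e-04), 0.96 for Hoxc12 (SE 0.19, adjusted p = 0.0075), 0.82 for Hoxa13 (SE 0.21, adjusted p = 0.0307) and 0.73 for Hoxc11 (SE 0.19, adjusted p = 0.0327). Hoxc4 (0.65, adjusted p = 0.0559) and Hoxc8 (0.64, adjusted p = 0.0908) came next and were not called. The 300 ng/ml count fell to 2 when untreated replicate 1, untreated replicate 2 or methanol replicate 2 was left out.

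A slope over the 3 doses, which uses no control array, was called for Hoxc13 alone among the members (5.40% of all genes). Its level rose by 0.28 per 2-fold step of dose (SE 0.05, adjusted p = 0.00691). Without replicate 2 of 10 ng/ml the slope was 0.22 with an adjusted p of 0.0662, and without replicate 2 of 100 ng/ml the count of members was 2. Hoxc12 had a slope of 0.13 (adjusted p = 0.0643), Hoxc8 0.11 (adjusted p = 0.152), Hoxc4 0.09 (adjusted p = 0.192), Hoxa13 0.08 (adjusted p = 0.36) and Hoxc11 0.07 (adjusted p = 0.366). All 9 HoxC members had a slope above 0, as they had a fitted difference above 0 at each dose. The slope of Hoxc10 turned below 0 with a term for the title range (-0.0024) and without replicate 2 of 10 ng/ml (-0.01). The fitted 300 ng/ml values came from replicate 2, which read 6.16 for Hoxc5 and 8.57 for Hoxc6. Replicate 1, labelled by Affyexpress, read 5.40 and 8.04, under the lowest controls of 5.44 and 8.11. For the other HoxC members replicate 1 lay above the control mean.

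The sample titles run in 2 number ranges, each with 1 untreated array and 3 BMP4 arrays, and the BMP4 difference was taken within each. For Hoxc13 it was 1.82 in the first range and 1.06 in the second, where the untreated arrays read 6.37 and 6.72. Hoxc12 gave 0.79 and 0.78, Hoxa13 0.59 and 0.58, and Hoxc11 0.61 and 0.39. Each of the 4 genes was higher with BMP4 in both ranges.

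Markers of other fates moved with BMP4 in the same arrays. The mean level of the 7 myoblast markers was 10.21 to 10.31 in the controls and 8.50 to 10.30 with BMP4, that of 6 osteoblast markers 4.74 to 4.87 and 5.02 to 7.21, and that of 5 adipocyte markers 4.90 to 5.02 and 5.16 to 6.18. For 4 chondrocyte markers it was 6.02 to 6.22 and 5.88 to 6.66, with Col2a1 called higher (0.98) and Sox9 lower (-0.39), and for 4 neuron markers 6.52 to 6.80 and 6.61 to 7.05, with Stmn2 called higher (0.66). Osteoblast markers above background numbered 2 of 6 in the controls and 4 of 6 with BMP4, where Ibsp and Dmp1 were still not above it. Of the osteoblast markers 4 were called higher and 2 lay below 0, the lowest being Dmp1 (-0.44), called lower along the dose. Of the adipocyte markers only Fabp4 (3.12) and Pparg were called higher, and 2 of 5 lay below 0, the lowest being Plin1 (-0.20). In the BMP4 mean 4.20% of all genes were called higher and 4.60% lower. The part of all these markers in the Hox differences was not tested.

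None of the 3 compounds gave a called Hox difference from methanol. Under compounds 942, 178 and 181 the means over 3 doses had 0 of 36 members called by limma, with 2, 1 and 3 members at an unadjusted p under 0.05, against 1.50%, 2.47% and 3.68% of all genes. Over all genes 0% were called for 942, 0% for 178 and 0.00451%, a single gene, for 181. At the 9 single doses 0 members were called too, and over all genes 0% were called at 8 of these doses and 0.0180% at 25 µM of 181. A single array per dose borrowed its spread from the other groups, so the compound values at 1 dose have no replicate check of their own.

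For Hoxc13, the gene that BMP4 moved most, the arrays at 6.25, 12.5 and 25 µM read 6.54, 6.29 and 6.36 with 942, 6.63, 6.58 and 6.77 with 178, and 6.47, 6.51 and 6.69 with 181. All lay under the lowest BMP4 array, and those of 942 lay under all methanol arrays. The mean differences from methanol were -0.31 for 942 (95% interval -1.07 to 0.45), 0.05 for 178 (-0.33 to 0.43) and -0.05 for 181 (-0.44 to 0.33). A mean rise as large as that under BMP4 lies outside all 3 intervals.

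Hoxc12 read 6.47, 6.24 and 6.27 with 942, 6.15, 6.06 and 6.33 with 178, and 6.20, 6.25 and 6.17 with 181. Its differences were -0.19 (95% interval -0.74 to 0.36), -0.18 (-0.46 to 0.09) and -0.15 (-0.43 to 0.12). Hoxc11 read 7.68, 7.45 and 7.58, then 7.67, 7.85 and 7.70, and then 7.42, 7.59 and 7.72, with differences of 0.13 (-0.42 to 0.68), 0.20 (-0.08 to 0.47) and 0.04 (-0.24 to 0.31). Hoxa13 read 5.44, 5.60 and 5.62, then 5.12, 5.39 and 5.18, and then 5.45, 5.53 and 5.59, with differences of 0.34 (-0.27 to 0.94), -0.09 (-0.40 to 0.21) and 0.20 (-0.10 to 0.50). For compound 942 the intervals of Hoxc11 and Hoxa13 include the BMP4 difference of these genes.

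The other members spread around 0 in each compound. Differences ran from -0.70 (Hoxd13) to 0.62 (Hoxc5) for 942, from -0.33 (Hoxa7) to 0.33 (Hoxa4) for 178 and from -0.27 (Hoxb2) to 0.36 (Hoxc4) for 181, with medians of 0.01, 0.01 and -0.01 and median SEs of 0.274, 0.137 and 0.137. The members at an unadjusted p under 0.05 were Hoxc5 and Hoxd13 for 942, Hoxa7 for 178, and Hoxc4, Hoxc8 (0.32) and Hoxb2 for 181. Their adjusted p was 1 in each case.

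For compound 942 the labelling method and the treatment cannot be told apart except through the 2 arrays of 300 ng/ml BMP4. Without the labelling term the sign of the 942 difference turned for 12 of 36 members. Hoxc5 went from 0.62 to -0.14, its 942 arrays reading 5.25 to 5.63 against 5.44 to 5.78 with methanol. Hoxb3 went from -0.18 to 0.33, with arrays of 4.92 to 5.12 against 4.43 to 4.84. Hoxc6 went from 0.51 to -0.02 and Hoxd13 from -0.70 to -0.27, and the median SE was 0.140 in place of 0.274.

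Counted without a model, compound 942 had 3 members with all its 3 arrays above all 3 methanol arrays (Hoxb1, Hoxb3 and Hoxd8, against 5.65% of all genes) and 5 below them (Hoxb6, Hoxc10, Hoxc13, Hoxd9 and Hoxd13, against 6.79%). Compound 178 had 2 above (Hoxb4 and Hoxc11, 4.67%) and 1 below (Hoxa7, 4.92%). Compound 181 had 3 above (Hoxa6, Hoxb3 and Hoxb5, 4.82%) and 1 below (Hoxc12, 6.51%). Methanol itself differed from untreated in 0 members (0% of all genes), with 1 member at an unadjusted p under 0.05, Hoxa4 (-0.42), against 2.86% of all genes, and a range up to 0.22 for Hoxb9.

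**Figure D4:**
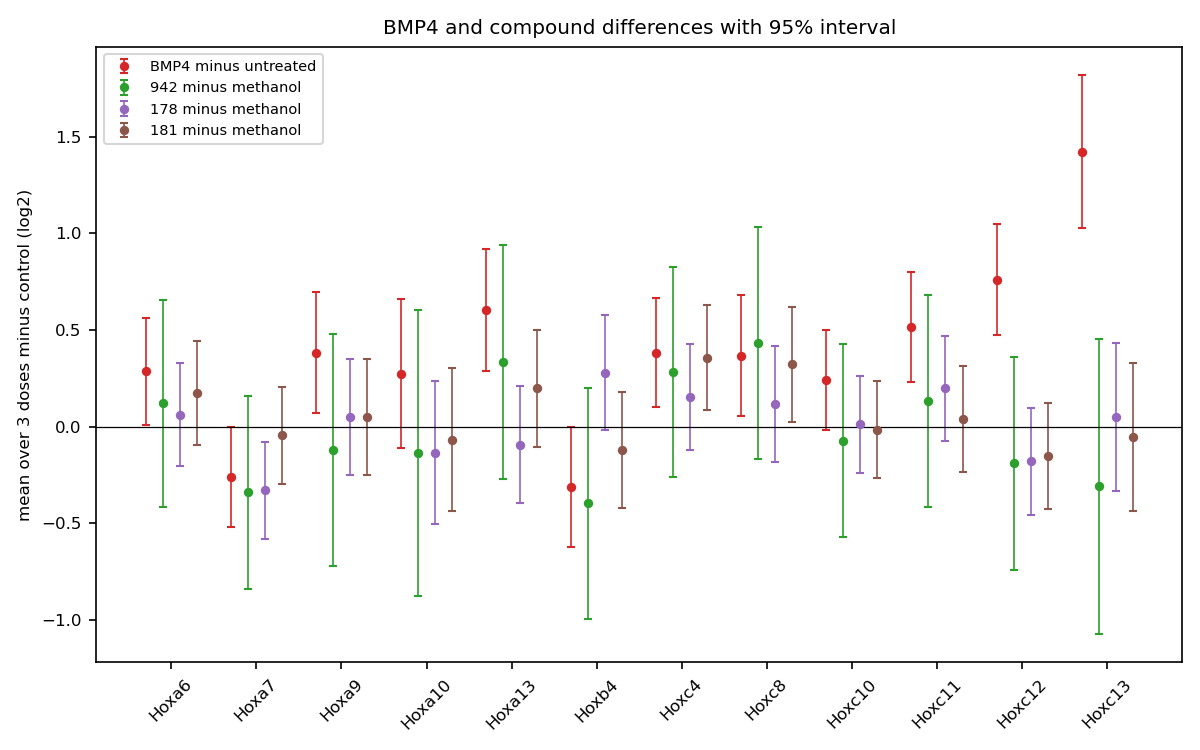
Difference (log2) with 95% interval for the 12 Hox genes named by rule, for the BMP4 mean against untreated and the means of compounds 942, 178 and 181 against methanol. Hoxc13 stands at 1.42 with BMP4 and at -0.31, 0.05 and -0.05 with the compounds.

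The compounds were also set against each other in 12 comparisons, 3 pairs at 3 matched doses and as means, and 0 members were called in any. Over all genes 0.00451% were called in the mean of 181 minus 178 and 0% in the other 11. The means over doses of 181 minus 178 ran from -0.40 for Hoxb4 (95% interval -0.70 to -0.10, adjusted p = 0.863) to 0.31 for Hoxa5, with -0.10 for Hoxc13 (-0.49 to 0.28) and 0.03 for Hoxc12 (-0.25 to 0.30). Those of 942 minus 178 ran from -0.77 (Hoxd13) to 0.71 (Hoxc5), with -0.36 for Hoxc13 (-1.12 to 0.40). Those of 942 minus 181 ran from -0.66 (Hoxd13) to 0.66 (Hoxb2), with -0.26 for Hoxc13 (-1.02 to 0.51). At an unadjusted p under 0.05 in these means were 4, 4 and 3 members, against 5.29%, 1.81% and 1.64% of all genes. The intervals do not show that the compounds act alike.

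Whether a compound moved a Hox gene otherwise than BMP4 did was tested as the compound's difference from methanol minus the BMP4 difference from untreated. Hoxc13 was called for all 3 compounds, at -1.73 for 942 (SE 0.35, adjusted p = 0.0495), -1.37 for 178 (SE 0.25, adjusted p = 0.0115) and -1.48 for 181 (SE 0.25, adjusted p = 0.00926). Hoxc12 was called for 178 (-0.94, SE 0.18, adjusted p = 0.0146) and 181 (-0.91, SE 0.18, adjusted p = 0.0209), and had -0.95 with an adjusted p of 0.143 for 942. Hoxa13 (-0.70, adjusted p = 0.0957, for 178 and -0.40, adjusted p = 0.442, for 181) and Hoxc11 (-0.32, adjusted p = 0.508, and -0.48, adjusted p = 0.255) were not called.

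Over all genes 0.780%, 3.52% and 2.86% were called in these tests for 942, 178 and 181. Without replicate 2 of 300 ng/ml BMP4, the BMP4 effect set against 178 and 181 was a mean over the lower doses only. The 942 call was lost with 8 single arrays left out in turn (the untreated, the methanol and the 942 arrays) and with no variance trend. When the doses of a treatment shared 1 mean, 0 members were called for 178 and for 181, and without untreated replicate 1 the count was 1 for 178 and 0 for 181. The count was 1 for either compound without untreated replicate 2, methanol replicate 2 or replicate 2 of 300 ng/ml BMP4, and 1 for 181 without methanol replicate 3.

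Among the DNA-binding partners of HOX proteins, Meis2 fell with BMP4. Of the 8 measured MEIS, PBX and PKNOX genes, all above background, 1 was called lower and 0 higher in the BMP4 mean. Their median was -0.11, against -0.01 over all genes, and 3 were called lower along the dose. Over all genes 8.81% were called in the BMP4 mean and 5.40% along the dose. Meis2, whose product binds DNA with HOX proteins and marks the near part of the limb, read 9.83 and 9.82 untreated and 9.74, 9.92 and 9.96 with methanol. With BMP4 it read 9.58 and 9.18 at 10 ng/ml, 8.55 and 9.01 at 100 ng/ml, and 8.21 and 8.41 at 300 ng/ml. All 6 BMP4 arrays were under all controls, and the mean difference was -0.97 (SE 0.14, 95% interval -1.27 to -0.67, adjusted p = 8.67e-04) with a slope of -0.20 (adjusted p = 0.0104, and 0.068 and 0.0809 without replicate 1 of 10 ng/ml and replicate 2 of 300 ng/ml).

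Pknox2, a related cofactor, read 7.40 and 7.60 untreated, 7.71 and 8.07 at 10 ng/ml, 6.62 and 7.19 at 100 ng/ml, and 5.99 and 6.07 at 300 ng/ml. It was above untreated at the lowest dose and under it at the upper doses. Its slope was -0.36 (adjusted p = 6.66e-04) and its mean difference -0.55 (adjusted p = 0.0574). Pknox1 had a slope of -0.14 (adjusted p = 0.0164), which was not called when either of the same 2 arrays was left out (0.0625 and 0.125). Without replicate 2 of 300 ng/ml, the slopes of Meis2 and Pknox1 covered the lower doses only. Meis3 (0.26) was the member with the highest difference and was not called. The 9 compound arrays of Meis2 stayed at 9.79 to 10.09, and no cofactor was called in a compound mean.

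Of the 16 measured Polycomb genes, 1 was called higher and 0 lower in the BMP4 mean (median 0.08), against 8.81% of all genes called. Along the dose 0 were called by limma (5.40% of all genes), with 3 at an unadjusted p under 0.05 (16.2% of all genes). Rnf2, which encodes the catalytic ubiquitin ligase of Polycomb complex 1, read 8.88 and 9.09 untreated, 9.11, 9.27 and 9.28 with methanol and 9.38 to 9.70 with BMP4, a difference from untreated of 0.58 (SE 0.10, adjusted p = 0.00235). Its adjusted p was 0.0552 without untreated replicate 1, and with methanol as the control the difference was 0.34. Compound 178 at 25 µM read 9.61, within the BMP4 range. Cbx7, a chromodomain subunit that binds methylated histone H3, had -0.37 (adjusted p = 0.061). Of the 9 measured trithorax and H3K27 demethylase genes, 0 were called by limma in the BMP4 mean. At an unadjusted p under 0.05 was 1 of them, against 19.9% of all genes. Differences ran from -0.21 for Dpy30 to 0.23 for Kdm6b (adjusted p = 0.154), which encodes a demethylase of the Polycomb mark.

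Cdx factors and retinoic acid are known activators of Hox genes in the embryo. Cdx1 (4.67), Cdx2 (4.83) and Cdx4 (4.11) were not above background in the controls. Of the 17 measured genes of this list, 9 above background, 1 was called higher and 2 lower with BMP4 (median 0.03). The shares over all genes were 4.20% higher and 4.60% lower. Aldh1a3, an enzyme that makes retinoic acid, differed by 0.69 (adjusted p = 0.0392). Each of 5 single arrays left out ended that call (adjusted p 0.056 to 0.319), with 0.47 without untreated replicate 2. The retinoic acid binding proteins Crabp1 and Crabp2 differed by -1.29 (adjusted p = 0.00637) and -1.18 (adjusted p = 0.00459), and without untreated replicate 1 these were not called (0.0646 and 0.0924), nor was Crabp1 without untreated replicate 2 (0.0601). None of them was called along the dose or in a compound mean. Cyp26b1, also of this list, had its highest slope (0.14) and was not called in the BMP4 mean or along the dose. It read 5.58 and 5.69 untreated, 5.39 and 6.39 at 10 ng/ml, 6.18 and 6.32 at 100 ng/ml, and 6.15 and 6.60 at 300 ng/ml.

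Genes that are not Hox genes lie inside and at the ends of the clusters, and 7 of those measured lie inside. Of all 17 measured, 13 above background, 1 was called higher and 1 lower in the BMP4 mean (median -0.08), against 4.20% and 4.60% of all genes. The higher one was Mir196a-2, the host locus of a microRNA between Hoxc10 and Hoxc9, and the lower one was Calcoco1, a gene next to HoxC (-0.46, adjusted p = 0.00387, and 0.0553 without untreated replicate 2). The HoxC long noncoding RNA Hotair, between Hoxc12 and Hoxc11, had a difference of 0.26 (adjusted p = 0.363), and Mir615, inside Hoxc5, of 0.25 (adjusted p = 0.388). Hoxaas3, inside HoxA, was not called. It read 5.19 and 5.11 untreated and 4.68 to 5.05 with BMP4, within the control range of 4.63 to 5.19.

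The microRNA of the Mir196a-2 locus is printed because miR-196 is known to pair with messages of Hox genes, Hoxb8 among them. Capitals mark the seed, bases 2 to 8, in the mature sequences, and the mature sequence in the hairpin, which RefSeq places at chr15:102973350-102973434 on the plus strand of GRCm38.p6.
miR-196a-5p: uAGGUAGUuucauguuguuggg
miR-196b-5p: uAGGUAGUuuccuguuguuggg
Mir196a-2 hairpin: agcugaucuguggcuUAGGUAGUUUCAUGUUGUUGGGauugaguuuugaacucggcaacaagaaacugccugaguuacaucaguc
The products of Mir196a-1 in HoxB, Mir196a-2 in HoxC and Mir196b in HoxA share the seed AGGUAGU.

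Mir196a-2 read 5.17 and 5.27 untreated, 5.96 and 5.74 at 10 ng/ml, 5.69 and 5.54 at 100 ng/ml, and 5.75 and 5.96 at 300 ng/ml. All BMP4 arrays lay above the highest control (5.43), with no order by dose. The difference was 0.59 (SE 0.14, adjusted p = 0.0160), and leaving out untreated replicate 1 or 2 gave an adjusted p of 0.148 or 0.0705. One compound array, 181 at 25 µM, reached 5.99 while the other 8 lay at 5.17 to 5.50. The probe set measures RNA of the locus, and the mature microRNA was not measured. Hoxb8, at 3.98 ± 0.17 (SD, n = 5), was not above background.

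**Figure D5:**
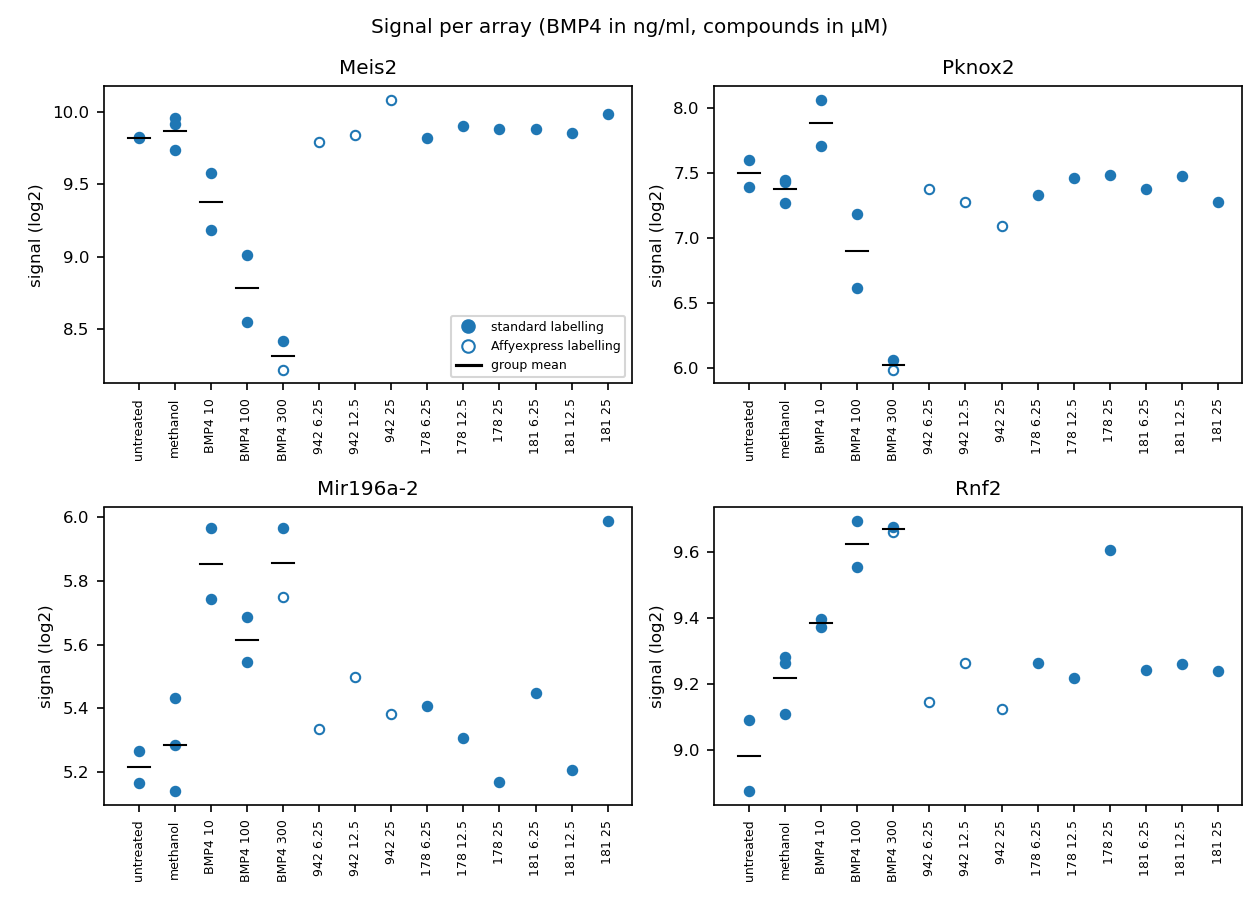
Level of Meis2, Pknox2, Mir196a-2 and Rnf2 in each of the 20 arrays as log2 signal, by treatment and dose, with open circles for Affyexpress. Meis2 lies at 9.74 to 9.96 in the controls and falls to 8.21 at 300 ng/ml BMP4, while Mir196a-2 lies at 5.54 to 5.96 with BMP4 against at most 5.43 in the controls.

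Other homeobox and T-box genes of limb and mesenchyme were read on the same arrays. Of 18 measured, 11 above background, 2 were called higher and 2 lower with BMP4 (median -0.02), against 4.20% and 4.60% of all genes. On the slope over doses 5.40% of all genes were called. Prrx1, a gene of limb mesenchyme, rose by 0.64 (adjusted p = 0.0041), and Dlx5, a BMP target in bone formation, by 1.30 (adjusted p = 0.0262) from a control level of 3.67 that was under background. The Dlx5 difference was 0.69 (adjusted p = 0.326) without replicate 2 of 300 ng/ml, and 3 other arrays left out or a common mean for doses also ended its call (adjusted p 0.0644 to 0.205). Prrx1 had an adjusted p of 0.0852 without untreated replicate 1. Prrx2 was not called in the mean or along the dose. It read 7.98 and 7.97 untreated, 8.45 and 7.66 at 10 ng/ml, 9.14 and 8.30 at 100 ng/ml, and 9.15 and 9.13 at 300 ng/ml. Six4, which acts in muscle precursors, differed by -0.74 (adjusted p = 2.47e-04) and Tbx15 by -0.58 (adjusted p = 0.00248). Along the dose, Dlx5 (0.47, adjusted p = 0.00931) and Msx2 (0.18, adjusted p = 0.0268) rose, and Six4 (-0.11, adjusted p = 0.0165) and Pax7 (-0.12, adjusted p = 0.0226) fell. Leaving out replicate 2 of 10 ng/ml ended all 4 of these slope calls (adjusted p 0.0658 to 0.161), replicate 2 of 300 ng/ml those of Dlx5, Msx2 and Pax7 (0.0772 to 0.185), and replicate 1 of 10 ng/ml or methanol replicate 2 that of Pax7 (0.0574 and 0.0536). Without replicate 2 of 300 ng/ml, the slopes and the Dlx5 difference covered the lower doses only. As a check of the BMP4 treatment, 5 of 9 pathway genes rose (Alpl, Smad6, Smad7, Smad9 and Sp7) and Myog, the differentiation factor of muscle, fell by 2.88. Id1 (1.03, adjusted p = 0.162), Id2 (0.60, adjusted p = 0.261) and Id3 (0.98, adjusted p = 0.059), direct targets of BMP signals, were not called.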

How the data were processed

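The deposited values are log2 signals of 41345 probe sets on 20 Affymetrix arrays. The authors made them with Partek 6.5 and RMA, per the submitters' processing notes. The labels' protocols name standard and Affyexpress labelling and 3 samples labelled both ways for batch correction, and whether that correction was applied is not stated in them. The doses of 12.5 µM and 100 ng/ml come from the sample titles. Of the probe sets, 23521 had 1 gene symbol, 1814 several and 16010 none, and the first gave 22180 genes, each by its brightest probe set on average.

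All 20 arrays were fitted with limma 3.58.1 in R 4.3.3 (lmFit, eBayes with a trend): 14 group means and a labelling term, with 5 residual degrees of freedom and a median of 6.73 prior ones. Benjamini-Hochberg adjustment ran over all genes, and called means an adjusted p under 0.05. Intervals are 95% and unadjusted, and the number of arrays limits their precision. The steps were tested on simulated data.

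The members and lists were chosen with earlier results of these data known. Array values are given for Hox genes called in a BMP4 or compound mean, BMP4 dose or slope, filled up to 12 by the largest BMP4 change above background. Of each other list, called members and the largest one not called are named. Non-Hox cluster genes included 7 names added by prefix (Hotair, Hoxaas3, Hoxd3os1, Mir10b, Mir196a-1, Mir196a-2 and Mir615). Alternatives covered the terms of the model, controls, normalization, probe sets, dim genes and single arrays.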

Additional observations from a re-analysis of the deposited data

How the results depend on the processing

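Over 31 alternative settings, 3444 of 3606 values of single genes kept their direction and their side of the threshold, 74 lost a call, 59 gained one and 29 changed sign, and 891 of 936 counts were within 1.5 times. Hoxc13 was called in the BMP4 mean in all 31 (adjusted p 8.31e-06 to 0.0144). Of the 36 Hox genes, 4 were called in the BMP4 mean, 7 with methanol as its control and 7 with untreated and methanol together, and 1 to 5 with an array left out, 1 (Hoxc13) without untreated replicate 2. These counts hold calls in either direction. At 100 ng/ml the count of 2 became 5 with methanol as control, 6 with both controls and 4 with quantile normalization again, and at 300 ng/ml the 4 became 2 to 5 with an array left out. On the slope, 1 became 2 with no labelling term, with a term for the title range, with quantile normalization again and with dim genes left out, and 0 to 2 with an array left out. For the compound effect minus the BMP4 effect, the 1 of 942 became 2 with no labelling term, with the title range and with a common mean for doses, 0 with no trend and with centred arrays, and 0 to 1 with an array left out. The 2 of 178 became 6 with methanol and 6 with both as control, 0 with a common mean and 1 to 2 with an array left out, and the 2 of 181 became 4 with both controls, 0 with a common mean and 0 to 2 with an array left out. No value that changed sign was called under either setting. Without a labelling term the slopes of Hoxa9 (0.0078), Hoxa10 (0.0005), Hoxa7 (0.0103), Hoxb4 (0.0109) and Mir196a-2 (-0.0102) and the 942 difference of Hoxc5 (-0.14) turned. With a term for the title range the slopes of Hoxa9 (0.0039), Hoxa10 (0.0040) and Hoxc10 (-0.0024) and the 181 difference of Hoxc13 (0.0013) turned, with quantile normalization again the Hoxa9 slope (0.0002), and with a common mean the 942 difference of Hoxc11 (-0.13). With an array left out, slopes ran from -0.0621 to 0.0382 for Hoxa9, -0.0056 to 0.0523 for Hoxa6, -0.0886 to 0.0480 for Hoxa10, -0.0123 to 0.0261 for Hoxc10, -0.0016 to 0.108 for Aldh1a3, -0.177 to 0.0588 for Crabp1 and -0.0715 to 0.0326 for Mir196a-2. Differences then ran from -0.0663 to 0.211 for Hoxc8 and -0.0287 to 0.596 for Hoxa10 at 10 ng/ml, -0.0162 to 0.283 for Hoxa10 at 300 ng/ml, -0.201 to 0.0009 for Hoxa13 and -0.0074 to 0.0903 for Hoxc13 under 178, and -0.0346 to 0.114 for Hoxc11 under 181. Leaving out replicate 2 of 300 ng/ml BMP4 took that dose out of the BMP4 means and slopes. Above background were 12 members in place of 24 at the 99th percentile. The causes were not tested. Leaving out every Affyexpress array, chosen after seeing the data, kept the BMP4 count at 4. No paired analysis was possible because the labels carry no replicate numbers, and the title range stood in as a term.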

Other observations

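Probe sets shared by a Hox gene and another transcript were left out of the tests. The probe set shared by Hoxa7 and Mira, a noncoding RNA of that locus, read 6.71 to 7.08 in the 5 controls and 5.72 to 6.72 in the 6 BMP4 arrays, with 5 of the 6 under all controls and means of 6.93 ± 0.15 (SD, n = 5) and 6.19 ± 0.34 (SD, n = 6). The Hoxa7 probe set of its own differed by -0.26 from untreated and was not called there, but was called lower with all controls pooled. Signal of the 2 transcripts cannot be told apart in the shared one. Of the 2 probe sets shared by Hoxa11 and its antisense Hoxa11os, 1 read 6.34 to 6.63 in the controls and 6.42 to 6.93 with BMP4, above all controls in 5 of 6 arrays, and the other had means of 7.23 and 7.35. The probe set shared by Hoxd4 and Hoxd3 had means of 5.25 and 5.20, that of Hoxb3 and Hoxb2 4.70 and 4.43, and the second, unshared Hoxb5 probe set 5.63 and 5.54. None of these differences was tested.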
